A study of Mus musculus with 12 samples.

Results

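Of the 20551 regions of open chromatin under 5 kb that were called in all 12 libraries of mouse splenic natural killer (NK) cells, 1011 (4.92%) differed in width between stimulated and control cells without any overlap between the libraries. In 619 of them (3.01%) the called interval was wider in every stimulated library than in every control library, and in 392 (1.91%) it was narrower in every stimulated library. These regions are present in both conditions, so a count of peaks gained or lost does not see them. They were chosen by their widths: as many of the strongest intervals of each library were kept as the shortest list holds, intervals of different libraries that shared at least 1 bp were merged, and the widths of a library's kept intervals within a merged region were summed. In all, 45091 regions were called in at least 2 libraries, 21076 of them in all 12. Because the stimulated and control widths chose the regions, every difference between the treatments given here is a description and carries no test. The comparison of the genotypes was not used in the choice and was tested, although the rule bounds the widths of both genotypes by those of the other treatment.

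NK cells from mouse spleen were profiled by ATAC-seq, in which a transposase inserts sequencing adapters into accessible DNA. Cells labelled WT are named Reg-1fl/fl in the study's design, a genotype that carries the floxed Regnase-1 gene without its deletion, and cells labelled KO are named Reg-1ΔNK. Each genotype was profiled as control cells and after stimulation with IL-12/18, with 3 libraries in each of the 4 groups. The Cre driver, the cytokine doses, the length of stimulation and the age of the mice are not given in the sources used here, nor is it stated whether the 3 libraries of a group stem from different mice. The p-values therefore reflect the variation among these libraries, which may be technical. Regnase-1, encoded by Zc3h12a, is an RNA-cleaving enzyme that limits the lifetime of inflammatory transcripts. The comparison addresses how stimulation and loss of Regnase-1 alter the accessible chromatin of NK cells.

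An ATAC-seq interval ends where the signal falls below what the peak caller accepts, so an interval widens when neighbouring DNA opens, when signal at the same site rises, or when the library is read more deeply. IL-12 signals through STAT4 and IL-18 through MyD88, NF-kB and AP-1, and in combination these cytokines are strong inducers of interferon gamma in NK cells. Enhancers of lymphocyte genes often consist of several neighbouring elements bound by different factors, and promoters extend over the nucleosomes that flank the start site.

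The start-site windows of the regions described most closely below are printed first, because they are the DNA whose surroundings were called over a longer or a shorter stretch. Each window runs from 250 bases before to 50 bases after a RefSeq transcription start (GRCm38.p6, the assembly of mm10), 5′ to 3′ on the gene's strand. Capitals mark matches on either strand to TGANTCA (AP-1), TTCNNNGAA (STAT), GGG and CC set 5 bases apart (NF-kB), TGTGGT (RUNX), AGGTGTGA (T-box), a pair of GAAA set 2 bases apart (IRF), ACAGGAAG (ETS) and ATGCAAAT (octamer), and neighbouring matches can run together. In 4 wider regions the windows were these. Havcr2 lies at chr11:46454681-46454980 (+ strand), Stat5a at chr11:100860234-100860533 (+ strand, 1 of its 2 starts in the region), Il2ra at chr2:11642542-11642841 (+ strand) and Prdm1 at chr10:44458699-44458998 (− strand).
Havcr2: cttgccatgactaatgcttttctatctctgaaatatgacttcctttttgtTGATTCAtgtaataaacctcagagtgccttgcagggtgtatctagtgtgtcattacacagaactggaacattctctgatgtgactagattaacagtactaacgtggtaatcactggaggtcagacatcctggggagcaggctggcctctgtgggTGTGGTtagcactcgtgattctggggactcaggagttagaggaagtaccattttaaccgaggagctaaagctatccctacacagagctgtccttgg
Stat5a: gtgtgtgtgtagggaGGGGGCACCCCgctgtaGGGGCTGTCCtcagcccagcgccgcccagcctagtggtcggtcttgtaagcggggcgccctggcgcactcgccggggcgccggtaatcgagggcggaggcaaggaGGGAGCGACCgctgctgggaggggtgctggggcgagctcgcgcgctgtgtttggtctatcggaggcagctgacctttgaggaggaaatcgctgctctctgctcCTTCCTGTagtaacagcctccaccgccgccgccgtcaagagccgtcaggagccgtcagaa
Il2ra: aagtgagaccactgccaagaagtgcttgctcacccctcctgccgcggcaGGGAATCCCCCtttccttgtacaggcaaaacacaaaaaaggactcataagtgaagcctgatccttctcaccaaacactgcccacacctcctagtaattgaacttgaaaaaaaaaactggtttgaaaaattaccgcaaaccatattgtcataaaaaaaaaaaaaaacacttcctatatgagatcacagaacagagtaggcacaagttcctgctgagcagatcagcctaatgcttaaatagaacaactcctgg
Prdm1: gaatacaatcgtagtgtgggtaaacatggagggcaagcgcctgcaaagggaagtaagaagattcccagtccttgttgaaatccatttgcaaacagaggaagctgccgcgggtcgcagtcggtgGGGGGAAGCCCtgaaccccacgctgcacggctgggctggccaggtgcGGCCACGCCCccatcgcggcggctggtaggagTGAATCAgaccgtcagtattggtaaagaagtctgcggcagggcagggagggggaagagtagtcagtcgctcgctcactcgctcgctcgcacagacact
In 3 narrower regions, Ifngr1 lies at chr10:19591699-19591998 (+ strand), Rnpepl1 at chr1:92910575-92910874 (+ strand) and H2ac12 at chr13:22035594-22035893 (− strand).
Ifngr1: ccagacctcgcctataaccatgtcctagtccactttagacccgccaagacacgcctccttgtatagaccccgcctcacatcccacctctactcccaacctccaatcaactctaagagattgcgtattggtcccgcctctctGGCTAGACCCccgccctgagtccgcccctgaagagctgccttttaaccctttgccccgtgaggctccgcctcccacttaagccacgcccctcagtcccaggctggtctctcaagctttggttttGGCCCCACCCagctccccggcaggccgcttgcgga
Rnpepl1: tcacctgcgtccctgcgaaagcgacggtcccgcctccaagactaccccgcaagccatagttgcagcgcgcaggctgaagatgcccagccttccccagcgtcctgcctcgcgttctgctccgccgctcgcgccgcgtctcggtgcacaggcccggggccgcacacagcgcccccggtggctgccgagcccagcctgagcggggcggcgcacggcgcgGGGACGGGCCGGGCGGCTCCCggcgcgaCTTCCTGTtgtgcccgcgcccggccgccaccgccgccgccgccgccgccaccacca
H2ac12: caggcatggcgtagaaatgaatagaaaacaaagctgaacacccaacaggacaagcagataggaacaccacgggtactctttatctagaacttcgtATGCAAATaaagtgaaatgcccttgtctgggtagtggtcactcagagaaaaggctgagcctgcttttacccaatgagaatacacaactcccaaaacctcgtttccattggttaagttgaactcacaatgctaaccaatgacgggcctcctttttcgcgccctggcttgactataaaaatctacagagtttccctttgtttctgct
The Havcr2 window held an AP-1 match and a RUNX match, the Prdm1 window an AP-1 match beside 3 NF-kB matches, and the H2ac12 window an octamer, a motif long known from histone H2B promoters. Over all windows in members, the AP-1 motif was in 5 of 76 windows of wider regions (6.58%), in 7 of 98 of narrower regions (7.14%), in 4.27% of the windows in other constant regions and in 6.99% of all 21263 windows in the table. RUNX matches were in 19.7% and 17.3% of the wider and narrower windows, against 12.1% in other constant regions and 14.97% of all windows. The octamer was in 3 of 76 and 3 of 98 windows (3.95% and 3.06%), against 1.21% and 1.66%. STAT matches were in 7.89% and 7.14%, against 6.69% and 7.69%, IRF matches in 2.63% and 3.06%, against 2.86% and 3.35%, and ETS matches in 3.95% and 4.08%, against 3.19% and 3.23%. The T-box motif was in 1 and 0 windows, against 0.722% in other constant regions. The loose NF-kB pattern was in 65.8% and 66.3%, against 70.5% and 57.0%, so its presence separates little. A match is a string of letters and not a shown binding site.

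Some members lay within 10 kb of a microRNA gene, and the mature 5p strands of 4 of these are given with the seed (bases 2 to 8) in capitals, from RefSeq. They were picked for display after the values were seen.
mmu-miR-155-5p: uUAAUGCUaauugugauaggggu
mmu-miR-146b-5p: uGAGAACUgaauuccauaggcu
mmu-miR-449a-5p: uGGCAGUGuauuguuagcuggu
mmu-miR-449c-5p: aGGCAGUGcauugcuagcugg
miR-155 is induced in activated lymphocytes, and miR-146b belongs to the miR-146 family that restrains NF-kB signalling. The wider region at chr16:84702498-84706985 lay 7.2 kb from Mir155 and measured 987, 1027 and 1144 bp in WT control and 1756, 1599 and 1101 bp in KO control libraries, against 4398, 3329 and 4383 bp in WT stimulated and 3815, 3116 and 3535 bp in KO stimulated libraries. The lowest stimulated library exceeded the highest control library by 1360 bp, and the change was 3.02-fold (all fold changes here are ratios of geometric means over the 6 libraries of each treatment). A wider region 2.6 kb from Mir146b changed less, 1.34-fold with a gap of 57 bp. Mir449c lay inside and Mir449a 1 kb from a wider region that changed 1.53-fold, and these share the seed GGCAGUG.

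The libraries were not equal. The deposited lists reached 63128 distinct intervals in WT stimulated replicate 3 and were shortest in KO stimulated replicate 1, whose list was kept whole. The weakest kept interval had a −log10 q of 1.31 in KO stimulated replicate 1 and 27.05 in WT stimulated replicate 3. Read depth is not known from peak lists. The median width over all constant regions was 1108 to 1453 bp, lowest in KO stimulated replicates 2 and 1. Intervals over or within 1 kb of 8 of 8 NK marker genes (Ncr1, Klrb1c, Eomes, Tbx21, Prf1, Gzma, Il2rb and Klrk1) were kept in all 12 libraries. Of 5 markers each, 2 B cell, 2 T cell, 3 myeloid and 2 erythroid genes also had an interval in all 12, while genes such as Ms4a1, Cd3g, Cd8a, Csf1r, Lyz2, Hbb-bs and Alas2 had none in any library. In bulk samples, a smaller share of cells with an accessible site and a less accessible site in each cell cannot be told apart.

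Wider regions began as short intervals and became long ones. Their median width per library was 884.7 ± 75.2 bp in WT control, 898.0 ± 23.8 bp in KO control, 1614 ± 39.1 bp in WT stimulated and 1472 ± 71.2 bp in KO stimulated cells (mean ± SD of 3 libraries). Narrower regions went in WT cells from 1437 ± 73.5 bp in control to 1032 ± 43.9 bp in stimulated libraries, and in KO cells from 1365 ± 30.0 to 891.3 ± 68.0 bp. The 19540 other constant regions stood at 1355 ± 109 and 1282 ± 20.01 bp in control and at 1378 ± 71.2 and 1163 ± 97.6 bp in stimulated cells, so the KO stimulated libraries were narrower in general. Divided by the median of the other regions in the same library, wider regions were at 0.630 to 0.710 in the 6 control libraries and at 1.14 to 1.31 in the 6 stimulated ones. Narrower regions were at 1.04 to 1.11 and at 0.738 to 0.780. In control cells the regions chosen as wider were shorter than the usual constant region, and after stimulation longer. The same widths chose them, so this order is a description only.

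**Figure D1:**
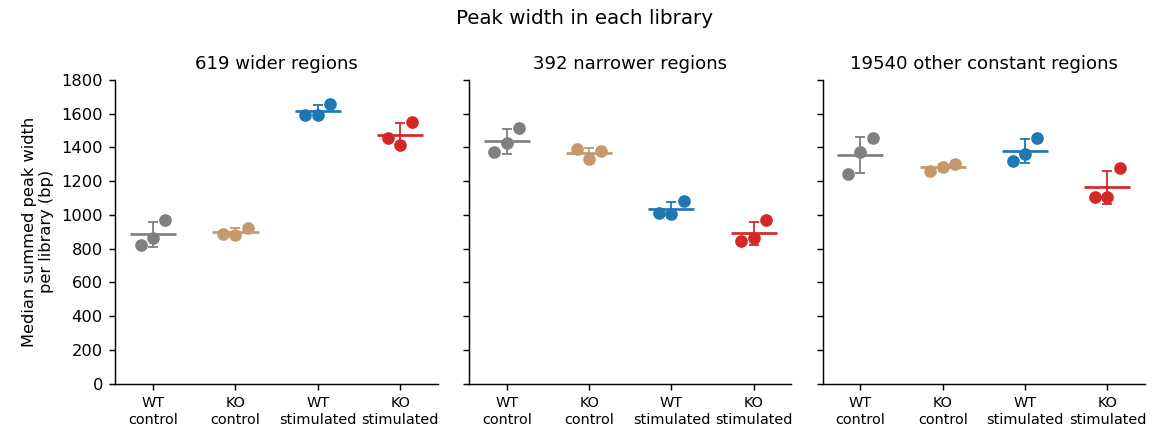
Median summed peak width (bp) over the 619 wider, 392 narrower and 19540 other constant regions, 1 point per library, with the mean (line) and SD (bars) of the 3 libraries of each group. Wider regions rise from 822 to 968 bp in control libraries to 1411 bp or more, narrower regions fall, and the other regions are lowest in the KO stimulated group.

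Over the 619 wider regions the median change was 1.64-fold (545 bp), and 153 changed more than 2-fold. The median change of the 392 narrower regions was 1.42-fold, a loss of 402 bp, and 34 changed more than 2-fold. The median log2 change of the other constant regions was −0.06. Within WT cells the median log2 change was 0.82 for wider and −0.42 for narrower regions, and within KO cells 0.60 and −0.56. WT cells changed more than KO cells in 469 of the 619 wider regions and in 98 of the 392 narrower ones. A median of −0.15 (wider) and −0.13 (narrower) for the KO minus WT difference in log2 change stood beside −0.16 over all constant regions. That difference was above 0 in 24.2% of wider and 25% of narrower regions, against 22.1% of all constant regions. After each library was centred on its median, the shares above 0 were 53.0% and 57.1%, against 51.5% of all.

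**Figure D2:**
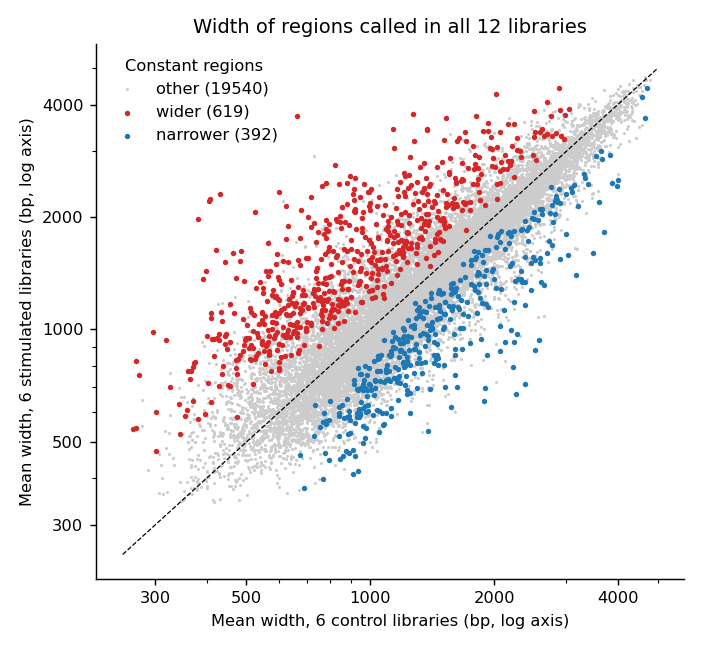
Mean summed width of each of the 20551 constant regions in the 6 control (x) and 6 stimulated libraries (y), in bp on log axes, with the line of equality. Wider (red) and narrower (blue) regions flank the grey cloud of other regions, and the wider ones reach a 5.78-fold change.

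In most members 1 edge alone separated the treatments without overlap. An edge that did not separate them could still have moved. In 195 wider regions only the lower edge lay beyond that of every control library, in 222 only the upper edge, in 92 both, and in 110 neither edge alone separated the treatments although the summed width did. Thus 1 edge alone separated the treatments in 417 of 619 wider regions (67.4%) and in 214 of 392 narrower ones (54.6%: 110 lower, 104 upper). Both edges did so in 30 narrower regions and neither in 148. Single intervals in all 12 libraries made up 502 of the wider (81.1%) and 322 of the narrower regions (82.1%), against 87.7% of all constant regions. In these members the called interval grew or shrank, with no separate interval beside it. A single interval can still hold several summits. The bases covered in at least 1 library of the wider state and in none of the other had a median length of 592 bp in wider and 414.5 bp in narrower regions, next to a core shared by all 12 libraries of 643 and 676.5 bp. The peak caller's summit marks the highest point of a peak. At least 1 summit fell in the added stretch in all 6 stimulated libraries for 93 wider regions and in none for 338. For the narrower regions, a summit stood in the stretch lost with stimulation in all 6 control libraries for 25 and in none for 275. A weaker interval from at least 1 library of the other treatment, left out by the equal list length, overlapped that stretch in 96 wider and 60 narrower regions. In those libraries at least part of the stretch was called, only more weakly. The list of KO stimulated replicate 1 was kept whole, so that library could hold no such interval.

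Peak strength moved with width. Intervals were ranked within each library by −log10 q, with 1 the strongest. The median rank of wider regions was 19147.5 in control and 8912.5 in stimulated libraries, and 415 of the 619 (67.0%) ranked better in all 6 stimulated libraries, against 10.8% of all constant regions. Narrower regions went from a median rank of 10023 to 16658, and 220 of the 392 (56.1%) ranked better in all 6 control libraries, against 12.6% of all. Rank and width come from the same signal, so neither supports the other, and how far the widths follow from peak strength was not tested.

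**Figure D3:**
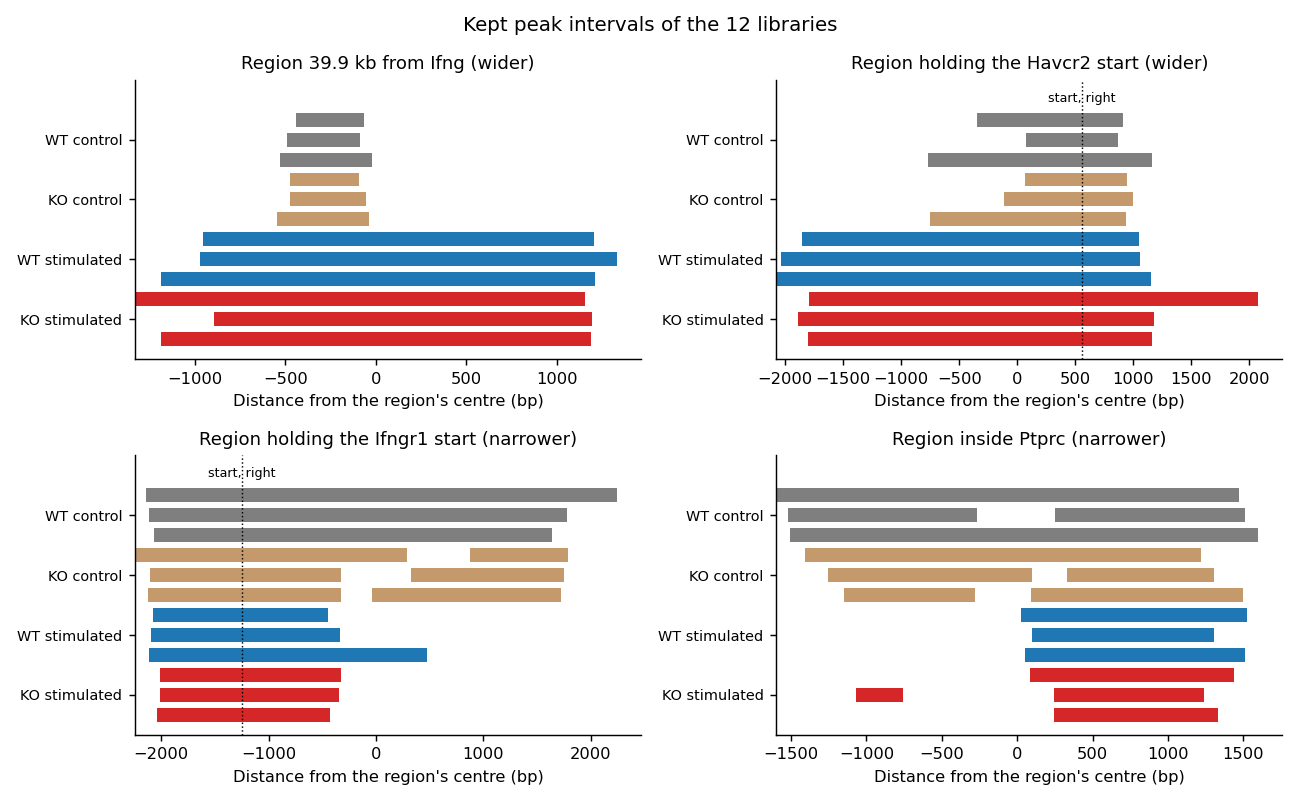
Kept intervals of the 12 libraries (rows, coloured by group) in 4 regions, as distance in bp from the region's centre; dotted lines mark the Havcr2 and Ifngr1 start sites. The region near Ifng extends at both ends in stimulated libraries, the Havcr2 region mainly to the lower side, upstream of the start, and the Ifngr1 and Ptprc regions lose their upper and lower parts.

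Members held gene starts less often than other constant regions did. A transcription start was inside 60 of 605 wider regions (9.92%) and 84 of 378 narrower regions (22.2%), against 39.1% of other constant regions (chromosomes with a start-site table only). The median distance to a start was 34.8 kb for wider, 18.3 kb for narrower and 7.41 kb for other constant regions. Wider regions were within 1 kb of an end of a protein-coding gene in 15.2% of cases, narrower in 28.3% and others in 46.4%, while 87 wider regions (14.1%) were over 50 kb from any such gene, against 8.16% and 5.61%. Short regions are in general far from starts, so the shares were also read within classes of mean width over the 12 libraries. Up to 750 bp, no wider region, 11.1% of narrower and 7.98% of other regions held a start, and between 750 and 1000 bp the shares were 0%, 10.1% and 20.2%. Between 1000 and 1500 bp they were 5.91%, 20.9% and 41.4%, between 1500 and 2000 bp 21.9%, 20.6% and 52.9%, and between 2000 and 5000 bp 26.1%, 53.6% and 57.7%. Wider regions were thus below the others in each class, and narrower ones in each but the shortest, which holds 38 of them. A region gained outright with stimulation (present in all 6 stimulated libraries and absent from the 6 control libraries, 1624 in all) lay within 50 kb of 167 wider regions (27.0%), 42 narrower regions (10.7%) and 13.8% of the others. A region lost outright (998 in all) lay within 50 kb of 8.08%, 11.2% and 10.6%. Where a member held starts of 1 strand only, the upstream edge alone separated the treatments in 18 of 55 wider regions, the downstream edge alone in 23, both in 5 and neither in 9. In the 78 narrower ones these numbers were 8, 24, 1 and 45.

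Wider regions near cytokine genes were led by interferon gamma, the main effector cytokine of NK cells. Among the 42 constant regions nearest to genes of a list of cytokines and chemokines, 7 were wider (16.7%, against 3.01% of all constant regions) and 1 narrower (2.38%, against 1.91%), with a median log2 change of 0.26, against −0.06 over all constant regions, and 4 of the 7 belong to Ifng. The element at chr10:118485765-118488427, 39.9 kb from Ifng, measured 376, 403 and 510 bp in WT control and 379, 419 and 506 bp in KO control libraries. It measured 2159, 2303 and 2397 bp in WT stimulated and 2483, 2085 and 2371 bp in KO stimulated libraries. Control and stimulated libraries are separated by 1575 bp, more than in any other member within 50 kb of a protein-coding gene, and the genotypes overlap within each treatment. The change was 5.35-fold, both ends moved, and the median rank went from 28468 to 4819. In all 6 stimulated libraries a summit lay in the added stretch, and no control library held a weaker interval there. Of the 8 constant regions nearest to Ifng, the other 3 wider ones were 5.0, 12.2 and 20.4 kb away and changed 1.54-, 1.89- and 1.33-fold, with gaps of 52, 10 and 26 bp. None of those had a summit in the added stretch.

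Chemokine and interleukin neighbours changed less. Xcl1 encodes lymphotactin, which attracts cross-presenting dendritic cells. The region 39.4 kb from Xcl1 measured 1608, 1556 and 1852 bp in WT control, 1566, 1168 and 1197 bp in KO control, 2670, 2860 and 3018 bp in WT stimulated and 2803, 2694 and 2784 bp in KO stimulated libraries. The gap was 818 bp and the change 1.90-fold, on the upper side. Regions 46.9 kb from Il2, the T cell growth factor, and 6.3 kb from Ccl3, an inflammatory chemokine gene, changed 1.67- and 1.31-fold, with gaps of 322 and 299 bp. The narrower region of the list lay 2.8 kb from Il13, a type 2 cytokine, and changed 1.38-fold.

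Among cytokine receptors and the JAK-STAT pathway, regions of signal transducers and of a growth factor receptor widened and a receptor for interferon gamma narrowed. Of 73 constant regions on this list, 4 were wider (Stat5a, Il2ra, Socs3, Jak1; 5.48%, against 3.01% of all constant regions) and 2 narrower (Ifngr1, Il12rb2; 2.74%, against 1.91%). STAT5A transmits IL-2 and IL-15 signals. The region at chr11:100857876-100862492, which holds 2 Stat5a starts, measured 1630, 1706 and 2218 bp in WT control, 3000, 1878 and 1682 bp in KO control, 4435, 4338 and 4576 bp in WT stimulated and 4014, 4384 and 3909 bp in KO stimulated libraries. KO control replicate 1 was the highest control library, 909 bp below the lowest stimulated one, and both ends moved outward. Il2ra encodes CD25, which gives the IL-2 receptor its high affinity. Its start region, chr2:11640854-11644002, measured 1795, 1853 and 1653 bp in WT control and 1708, 1892 and 1861 bp in KO control, and 2934, 2605 and 2939 bp in WT stimulated and 3066, 2370 and 2745 bp in KO stimulated libraries. That is a 1.54-fold change with a gap of 478 bp, and no library had a summit in the added stretches: the same peak was called over a longer stretch at both ends. Socs3, a feedback inhibitor of cytokine signalling, and Jak1, a receptor kinase, changed 1.24- and 1.34-fold.

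Ifngr1, the ligand-binding chain of the interferon gamma receptor, had the region with the opposite change. At chr10:19590953-19595440 the widths were 4382, 3890 and 3700 bp in WT control and 3444, 3205 and 3553 bp in KO control libraries. They were 1628, 1756 and 2581 bp in WT stimulated and 1681, 1665 and 1607 bp in KO stimulated libraries. All stimulated libraries were at least 624 bp below every control library, and WT stimulated replicate 3 was the widest of them. The change was 2.05-fold here. The treatments overlapped with all deposited intervals (1.73-fold) and with 50% of the kept intervals (1.58-fold). They also overlapped at a −log10 q of at least 10 (1.84-fold) and by the widest single interval (1.58-fold). The start itself stayed covered in every library, while a stretch on the downstream side with summits in all 6 control libraries was lost from the interval. Its median rank, 219 in control and 562 in stimulated libraries, kept it among the strongest intervals of each. Il12rb2, the signalling chain of the IL-12 receptor, had a narrower region inside the gene, 1.39-fold with a gap of 211 bp.

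Regions of checkpoint genes were wider in 3 of 29 cases (10.3%, against 3.01% of all: Havcr2 and 2 regions near Icos) and narrower in 1 (3.45%, against 1.91%: Tigit, 1.18-fold). Havcr2 encodes TIM-3, an inhibitory receptor that rises on activated NK cells. The region over its start, chr11:46452295-46456454, measured 1264, 793 and 1932 bp in WT control, 880, 1106 and 1688 bp in KO control, 2911, 3093 and 3232 bp in WT stimulated and 3880, 3071 and 2968 bp in KO stimulated libraries. The control libraries themselves spread more than 2-fold, and still the lowest stimulated library was 979 bp above the highest. The lower edge, upstream of the start, moved by 1644 bp at the median, and the mean number of summits went from 1.00 to 4.17. Of the 2 regions near Icos, a costimulatory receptor, 1 changed 1.34-fold and the other 1.42-fold.

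Transcription factors of NK cells had 13 wider (9.63%, against 3.01% of all) and 4 narrower regions (2.96%, against 1.91%) among 135, and the median log2 change of all 135 was −0.004, so the members stand at the ends of a list that was centred near 0. Runx2, a Runt factor, had a wider region 35.2 kb away, at chr17:44458730-44460828. It measured 526, 672 and 629 bp in WT control, 499, 944 and 516 bp in KO control, 1891, 2099 and 1986 bp in WT stimulated and 1665, 1821 and 1910 bp in KO stimulated libraries. That is 3.07-fold with a gap of 721 bp. The region 41.3 kb from Myb, a factor of proliferating progenitors, measured 1899, 1604 and 1650 bp in WT control, 1446, 1024 and 1422 bp in KO control, 3365, 3806 and 3519 bp in WT stimulated and 2553, 2922 and 3071 bp in KO stimulated libraries. KO libraries were the narrower ones within each treatment there, and its gap was 654 bp, which closed when only the widest interval was counted (2.04-fold). A region 25.6 kb from Myb was a member too, 2.63-fold wider. Ikzf1, which encodes Ikaros, had 3 wider members among its 9 constant regions, at 1.90-, 1.36- and 2.81-fold.

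Prdm1 encodes Blimp-1, a factor of terminal lymphocyte differentiation. Its start region at chr10:44457864-44460832 measured 1342, 1972 and 1779 bp in WT control, 1511, 1458 and 1259 bp in KO control, 2871, 2731 and 2769 bp in WT stimulated and 2214, 2295 and 2734 bp in KO stimulated libraries, 1.69-fold with a gap of 242 bp. The upper edge moved by 1270 bp, which for this gene on the − strand is upstream. All 6 control libraries held a weaker interval in that stretch, so the upstream element was already called at rest and entered the kept intervals with stimulation. Zeb2 and Ikzf3, which encode a zinc finger repressor needed for NK maturation and Aiolos, changed 2.90- and 1.68-fold, each with a gap of 283 bp. Near Runx1, a pair of members changed 1.38- and 1.56-fold. The narrower regions lay at Runx3 (2.02-fold, gap 69 bp), Pou2af1 (1.39-fold), Irf1 (1.22-fold) and Ikzf2 (1.30-fold), all with gaps of 69 bp or less. Runx3 is a Runt factor of cytotoxic lymphocytes, Pou2af1 an octamer coactivator of B cells, Irf1 an interferon response factor and Ikzf2 encodes Helios.

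In the NF-kB pathway, 4 of 64 regions were wider (6.25%, against 3.01% of all) and 3 narrower (4.69%, against 1.91%). The wider ones belong to Tnip1, Tnfaip3 (2 regions) and Nfkbiz. TNIP1 and A20, the product of Tnfaip3, restrain NF-kB signalling. The region inside Tnip1, chr11:54952234-54954779, measured 942, 750 and 1045 bp in WT control, 758, 925 and 1069 bp in KO control, 2125, 2212 and 2489 bp in WT stimulated and 1859, 1628 and 2146 bp in KO stimulated libraries, a gap of 559 bp. It was no member at a −log10 q of at least 10 (2.07-fold) or by the widest interval (1.86-fold). Near Tnfaip3, regions 30.2 and 27.4 kb away changed 3.43- and 1.72-fold. Nfkbiz, which encodes an IκB family cofactor of cytokine genes, changed 1.43-fold. The narrower list members include Tab2 (1.93-fold) and Irak2 (2.72-fold), adaptors of the IL-1 and IL-18 receptor pathway. Irak2 separated by 6 bp only, because KO control replicate 2 measured 989 bp and WT stimulated replicate 3 measured 983 bp, while the other control libraries were at 1853 bp or more. In the AP-1 family 1 of 37 regions was wider (2.70%: Batf3, 1.19-fold, gap 19 bp) and none narrower.

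Homing and maturation genes had 4 wider (10.5%, against 3.01% of all) and 3 narrower regions (7.89%, against 1.91%) among 38, and Cd44 had 1 of each. CD44 is the hyaluronan receptor of activated lymphocytes. Its wider region, chr2:102811965-102813319 inside the gene, measured 553, 469 and 598 bp in WT control, 634, 634 and 408 bp in KO control, 1335, 1332 and 1321 bp in WT stimulated and 1165, 1256 and 1321 bp in KO stimulated libraries. The narrower region lay 32.7 kb away, changed 1.80-fold and separated by 22 bp. Ccr7, the receptor for lymph node chemokines, had a wider region (1.42-fold), and S1pr1, the receptor for lymphocyte egress, a narrower one (1.65-fold). Ccr1, on no list and looked at after its values were seen, had 2 constant regions and both were wider, 2.62- and 1.37-fold.

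The remaining lists held few members, and the shares over all constant regions to read them against are again 3.01% wider and 1.91% narrower. NK receptors had 1 wider (Cd69, an early activation marker, 1.67-fold) and 1 narrower region (Klrk1, which encodes the activating receptor NKG2D, 1.68-fold) among 31 (3.23% each). Cytotoxic granule genes, which encode perforin, granzymes and their partners, had none among 30. RNA decay genes had a wider region 28.7 kb from Zc3h12a, the Regnase-1 gene, and a narrower one near Zfp36l2, a decay factor that binds AU-rich elements, among 21 (4.76% each). The Zc3h12a neighbour measured 1440, 1371 and 1481 bp in WT control and 1299, 1269 and 1342 bp in KO control, and 2039, 2176 and 2085 bp in WT stimulated and 1856, 1865 and 2230 bp in KO stimulated libraries, 1.49-fold with a gap of 375 bp. It lies outside the gene and does not check the deletion. Growth and survival genes had 3 wider (Bcl2l1, Cdk6, Mcl1) and 3 narrower regions (2 at Ccnd3, 1 at Bcl2) among 77 (3.90% each). A reference list of broadly expressed genes had 3 wider (11.1%: 2 near Ywhaz, 1 at Ppia) and 1 narrower (3.70%: Ptprc) among 27. Ptprc is a gene of leukocytes and not a ubiquitous one. Over all lists, 44 of 613 regions were wider (7.18%) and 21 narrower (3.43%). The reference list had as high a share of wider regions as most lists chosen for NK biology, though on 3 regions only.

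By size, the largest separation of all was not close to a gene. The region chr13:30600745-30604685, 55.4 kb from Dusp22 and added after its values were seen, measured 471, 508 and 744 bp in WT control, 752, 602 and 901 bp in KO control, 3903, 3524 and 3720 bp in WT stimulated and 3908, 3506 and 3866 bp in KO stimulated libraries. The gap was 2605 bp, the change 5.78-fold, and the mean number of summits went from 1.00 to 5.17. Its lower edge moved by 3065 bp, and 4 regions gained outright lay within 50 kb.

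The other wider regions with the largest gaps within 50 kb of a gene often touched genes with no known part in NK activation, and the nearest gene need not be the regulated one. Carmil1 encodes a regulator of actin capping. A region inside it measured 801, 1073 and 1004 bp in WT control, 1091, 442 and 940 bp in KO control, 2461, 2705 and 2601 bp in WT stimulated and 2476, 2537 and 2660 bp in KO stimulated libraries (gap 1370 bp). Mrpl39, which encodes a mitochondrial ribosomal protein, is the nearest protein-coding gene to the region near Mir155 described above. A region in Gm39469, a predicted gene, changed 1.99-fold (gap 1277 bp). The region 2.1 kb from Naa16, an acetyltransferase subunit, measured 381, 541 and 598 bp in WT control, 442, 663 and 526 bp in KO control, 2081, 2167 and 2101 bp in WT stimulated and 2002, 1928 and 2078 bp in KO stimulated libraries. Its lower edge moved by 1674 bp and its upper edge did not separate the treatments. Katnal1, a katanin-like gene, measured 315, 359 and 388 bp in WT control and 416, 386 and 564 bp in KO control, and 2177, 2428 and 2736 bp in WT stimulated and 1904, 1783 and 2205 bp in KO stimulated libraries, 5.49-fold. Slc1a2, which encodes a glutamate transporter, changed 5.58-fold, from 340 to 628 bp in control to 1763 to 2707 bp in stimulated libraries.

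Several of these neighbours have immune or survival roles. Tnfrsf14 encodes HVEM, the ligand of BTLA and CD160. The region 13.7 kb from it measured 735, 457 and 822 bp in WT control, 624, 551 and 553 bp in KO control, 2087, 2318 and 2220 bp in WT stimulated and 1961, 1930 and 2330 bp in KO stimulated libraries, 3.49-fold. Bcl2l1 encodes the survival protein BCL-xL. A region inside it measured 1580, 1655 and 1547 bp in WT control, 1915, 1834 and 1335 bp in KO control, 3279, 3457 and 3239 bp in WT stimulated and 3538, 2905 and 3091 bp in KO stimulated libraries, 1.99-fold with a gap of 990 bp. Regions in Atp10a, a phospholipid-transporting ATPase, and Nfia, a nuclear factor I gene, changed 3.32- and 3.27-fold with gaps of 1028 and 988 bp. The Atp10a region was no longer a member with all deposited intervals (2.11-fold), with 50% of the kept intervals (1.76-fold) or at a −log10 q of at least 10 (2.35-fold). Without WT stimulated replicate 2 the merged region shortened from 3695 to 1180 bp and changed 1.13-fold, so its extent rests on that library. The Nfia region was no member by its widest single interval (2.61-fold).

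**Figure D4:**
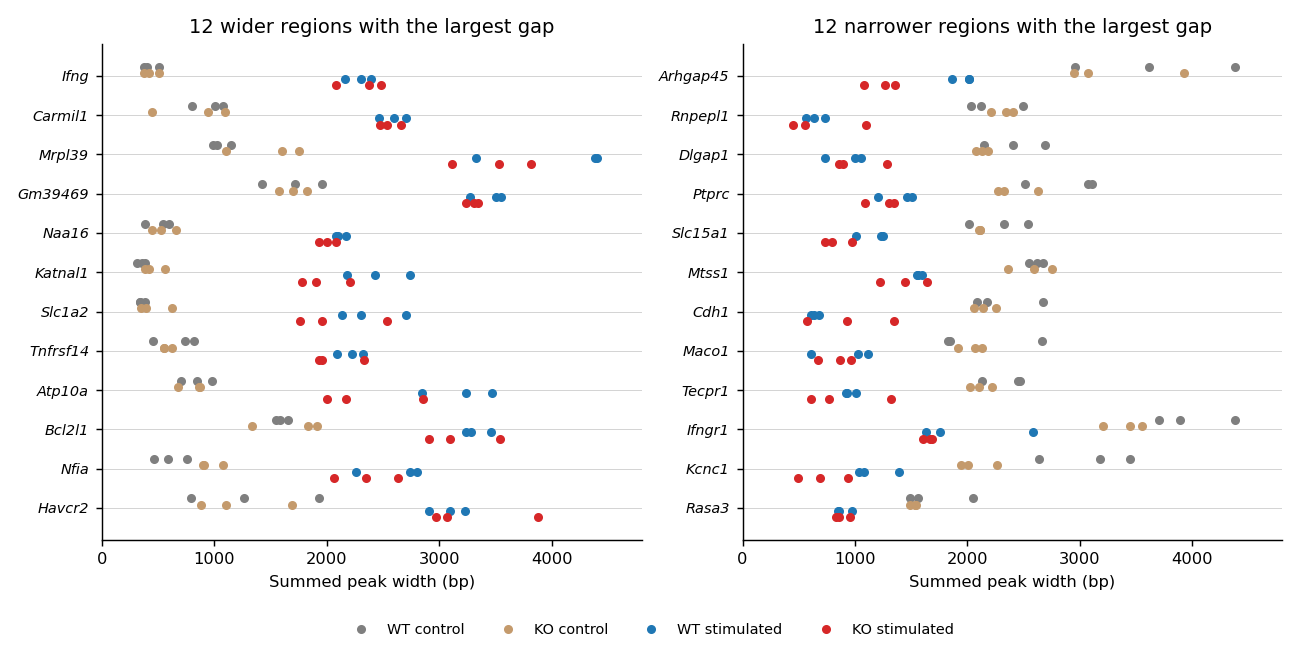
Summed peak width (bp) in each library for the 12 wider (left) and 12 narrower regions (right) with the largest gap between the treatments, within 50 kb of a protein-coding gene. Points are libraries, coloured by group and shifted vertically by group; in every row the stimulated points lie apart from the control points, by 1575 bp near Ifng and by 932 bp at Arhgap45.

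Narrower regions separated by less. Gaps reached 500 bp in 12 of 392 narrower and 72 of 619 wider regions, and were under 50 bp in 188 narrower and 162 wider ones. The largest, 932 bp, was inside Arhgap45, which encodes a GTPase-activating protein of blood cells (chr10:80021859-80026263). Its widths were 3610, 2958 and 4382 bp in WT control, 2947, 3926 and 3075 bp in KO control, 1865, 2015 and 2012 bp in WT stimulated and 1082, 1356 and 1270 bp in KO stimulated libraries, so the KO stimulated libraries were the lowest of all. With 50% of the kept intervals, and by the widest single interval, the change was 1.84-fold and the treatments overlapped. Rnpepl1, an aminopeptidase-like gene, had the largest fold change of the narrower regions at the equal list length, 3.50. The region over its start, chr1:92910059-92912584, measured 2032, 2119 and 2492 bp in WT control, 2409, 2208 and 2340 bp in KO control, 565, 729 and 639 bp in WT stimulated and 450, 1102 and 556 bp in KO stimulated libraries. Its upper edge, downstream of the start, retreated, and all 6 control libraries had a summit in the lost stretch. With all deposited intervals the change was 1.65-fold and the region was no member.

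Ptprc encodes CD45, the phosphatase found on all leukocytes. A region inside it, chr1:138156447-138159644, measured 3068, 2510 and 3106 bp in WT control, 2629, 2324 and 2275 bp in KO control, 1504, 1204 and 1458 bp in WT stimulated and 1348, 1306 and 1086 bp in KO stimulated libraries. The lower part was lost in 5 of 6 stimulated libraries, and KO stimulated replicate 2 kept a separate short interval there. By the widest single interval the change was 1.58-fold and the treatments overlapped. Cdh1 encodes E-cadherin, the ligand of the inhibitory receptor KLRG1. The region inside it went from 2061 to 2669 bp in control to 569 to 1348 bp in stimulated libraries, 2.94-fold at both ends, with no summit in the lost stretches, and its median rank went from 5859 to 24738. Rasa3, a GTPase-activating protein for Ras and Rap, measured 1491, 1556 and 2051 bp in WT control and 1492, 1537 and 1538 bp in KO control, and 849, 977 and 857 bp in WT stimulated and 831, 854 and 954 bp in KO stimulated libraries. The region 3.7 kb from Kcnc1, a potassium channel gene, changed 2.83-fold, and was no member with all intervals (2.11-fold) or by the widest interval (2.08-fold). Regions at Dlgap1 (2.37-fold), Slc15a1 (2.24-fold), Mtss1 (1.73-fold), Maco1 (2.40-fold) and Tecpr1 (2.47-fold) completed the 12. The Maco1 region was no member with all deposited intervals (1.44-fold) or by the widest single interval (1.65-fold), and without KO control replicate 2 the merged region shortened from 2947 to 1165 bp and changed 1.08-fold. Membership was also lost by Dlgap1 with all intervals (1.48-fold) and at a −log10 q of at least 10 (1.77-fold). Mtss1 lost it with 50% of the kept intervals and by the widest interval (1.66-fold in each). Slc15a1 encodes a peptide transporter, Mtss1 a membrane-bending protein and Tecpr1 an autophagy protein.

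Start regions of histone genes, examined after values were seen, were narrower with stimulation where they were members at all. The histone genes were those with symbols beginning H1f, H2a, H2b, H3c or H4c. Of 28 constant regions that hold a start of such a gene, 5 were narrower (17.9%) and none wider, against 1.11% and 0.794% of the 7559 constant regions that hold any start. The log2 change was below 0 in 27 of the 28, with a median of −0.25, against −0.07 over all start regions. The share below 0 over all start regions was not counted. Most of the 28 lie in clusters on chromosome 13 and are not independent of one another. The shared region of H2ac12 and H2bc12, chr13:22032981-22037758, measured 4525, 4177 and 3488 bp in WT control, 3759, 3364 and 3864 bp in KO control, 2548, 2817 and 2198 bp in WT stimulated and 2958, 2116 and 2202 bp in KO stimulated libraries, 1.57-fold. H1f5 (1.24-fold), H3c6 (1.30-fold), H1f2 (1.28-fold) and the region of H2ac11, H2bc11 and H4c9 (1.09-fold) were the others. Histone genes are near-identical copies in clusters, and the handling of reads that map to several places is unknown, so single histone regions are uncertain.

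Some genes had several members. The nearest genes numbered 828, of which 58 had at least 2 members, 36 of them wider only, 7 narrower only and 15 both. Atp8b4, a phospholipid-transporting ATPase gene, had 3 wider members among 5 constant regions (1.57-, 1.52- and 2.57-fold), and Reep3, an endoplasmic reticulum shaping gene, had 3 narrower among 4 (1.25-, 1.58- and 1.60-fold). Another member lay within 50 kb of 107 wider (17.3%) and 39 narrower regions (9.95%), against 11.9% of the other constant regions. A wider member lay that near to 14.4% of wider regions and 7.04% of the others, and a narrower member to 5.10% of narrower regions and 5.13% of the others.

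The genotypes were compared with limma on log2 summed width over all 20551 constant regions, with Benjamini-Hochberg adjustment. Averaged over both treatments, 22 regions were wider in KO (0.107%) and 598 narrower in KO (2.91%). Among the 619 wider members 2 were wider and 8 narrower in KO, and among the 392 narrower members 0 and 12. The median KO minus WT difference was −0.14 (log2) over all constant regions, −0.05 over the wider and −0.14 over the narrower members, and 12.6% of all constant regions lay above 0. After each library was centred on its median the numbers over all were 46 (0.224%) and 55 (0.268%). They were 7 and 0 in wider and 0 and 0 in narrower members, so the direction among the wider members depends on this choice. In control cells alone 11 regions were wider (0.0535%) and 12 narrower in KO (0.0584%), 3 of the 11 being wider members (Atp8b4, Ywhaz and Ltbp2) and none of either kind a narrower member. In stimulated cells alone 3 were wider (0.0146%) and 669 narrower in KO (3.26%), with 0 and 10 among the wider and 0 and 15 among the narrower members. Centring left 11 (0.0535%) and 56 (0.272%) there, with 1 and 0 among the wider and 1 and 1 among the narrower members. No region passed for the difference between the genotypes in their response to stimulation, with or without centring (0 of 20551; smallest limma adjusted p 0.103, and 1796 regions at an unadjusted p under 0.05).

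Atp8b4 was the clearest case. Its member at chr2:126309412-126311705, 9.3 kb from the gene, measured 400, 302 and 580 bp in WT control and 1192, 1813 and 1436 bp in KO control, against 1961, 1883 and 1893 bp in WT stimulated and 2093, 2176 and 1952 bp in KO stimulated libraries. In control cells all 3 KO libraries were above all 3 WT libraries. The KO minus WT difference was 0.97 on the log2 scale (SE 0.15, limma adjusted p = 0.0157) and 1.13 after centring (limma adjusted p = 0.0105). In control cells alone it was 1.82 (SE 0.21, limma adjusted p = 0.0342). The change of the response, −1.71 (SE 0.30), did not pass (limma adjusted p = 0.116). The exact permutation test within treatments gave p = 0.01 and an adjusted p of 0.123, and over all constant regions no adjusted p of that test fell under 0.1045. Its smallest possible p is 0.005.

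The region 34.1 kb from Ywhaz, which encodes the adaptor 14-3-3 zeta, followed the same order. It measured 703, 455 and 718 bp in WT control and 1763, 1295 and 1919 bp in KO control, and 3199, 3111 and 3174 bp in WT stimulated and 2326, 3161 and 3346 bp in KO stimulated libraries. In control cells KO libraries lay above WT libraries by 1.42 (log2, SE 0.20, limma adjusted p = 0.0353), and stimulated libraries overlapped. Averaged over the treatments the difference was 0.65 (SE 0.14, limma adjusted p = 0.0412), and the exact permutation test gave p = 0.065 (adjusted p 0.232). That averaged call was lost without WT control replicate 2 (limma adjusted p = 0.0688) or 3 (0.0651), without any of WT stimulated replicates 1, 2 and 3 (0.0667, 0.0797 and 0.0932), without KO control replicate 1 (0.0851) or 3 (0.0773), and without KO stimulated replicate 2 (0.0783). Ccr7 passed only after centring, at 0.47 (SE 0.07, limma adjusted p = 0.0218), and its 3 KO control libraries, at 1434, 1434 and 1430 bp, lay above the WT control libraries at 747, 938 and 1064 bp. In control cells after centring 10 wider members were wider in KO and 0 narrower, where 0.131% and 0.0487% of all constant regions passed. The median difference there was 0.09 over the wider members and 0.01 over all constant regions, and 71.1% of wider members against 53.7% of all lay above 0. The rule that chose the members also bounds these control widths in both genotypes. Setting the members beside all constant regions is therefore a description and no test.

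Other members past the genotype test were narrower in KO. Cox10 (−0.38, SE 0.07, limma adjusted p = 0.0192), a gene of mitochondrial haem A synthesis, and Il23r (−0.36, limma adjusted p = 0.0309), the IL-23 receptor gene, had narrower members. A narrower member inside Otud7b, a deubiquitinase gene, also holds the start of Mtmr11, in the stretch that was lost. Its width in stimulated cells was 1297, 1392 and 1188 bp in WT libraries, against 497, 460 and 684 bp in KO libraries, while the control libraries overlapped (−0.65, limma adjusted p = 0.0304). Wider members narrower in KO lay at Ly6a (−0.38, limma adjusted p = 0.0192), which encodes Sca-1, Wdr48 (−0.28, limma adjusted p = 0.0354), a cofactor of deubiquitinases, and Rmdn2 (−0.43, limma adjusted p = 0.0355). Near Ly6a the widths were 1256, 1532 and 1342 bp in WT control and 969, 885 and 972 bp in KO control, and 2439, 2513 and 2714 bp in WT stimulated and 2156, 2262 and 2213 bp in KO stimulated libraries, lower in KO in both treatments. After centring none of these 6 passed in the average over both treatments, while Otud7b passed in stimulated cells alone (−1.02, limma adjusted p = 0.0385). None passed the exact permutation test of that average after adjustment. Each also lost its call without at least 1 library: Ly6a without WT stimulated replicate 3 (limma adjusted p = 0.0575), Cox10 without WT control replicate 3 (0.0546) or WT stimulated replicate 3 (0.0538), and Il23r, Otud7b, Wdr48 and Rmdn2 without most single libraries. Of the 10 members with the smallest adjusted p, 3 had no protein-coding gene within 50 kb.

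**Figure D5:**
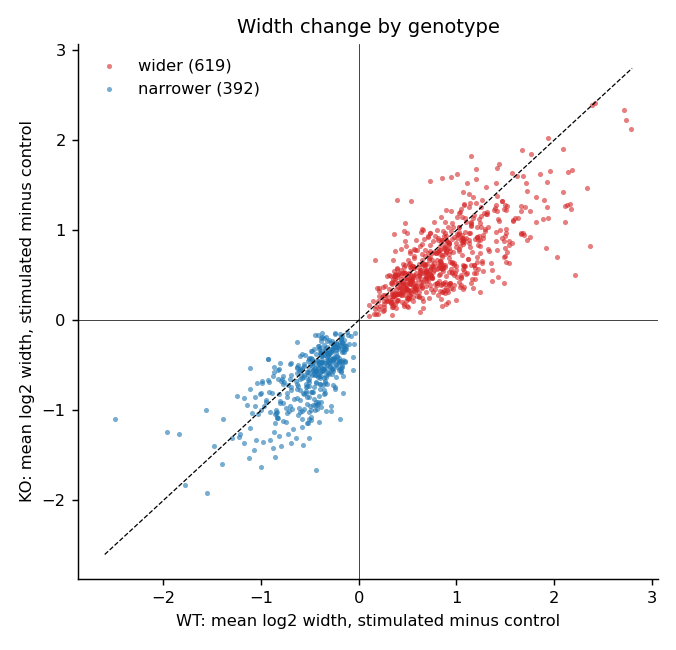
Mean log2 width, stimulated minus control, in WT (x) and KO cells (y) for the 619 wider (red) and 392 narrower regions (blue), with the line of equality. The rule places the points in 2 quadrants, and most wider points, 469 of 619, lie on the side of the larger change in WT. The log2 change was larger in KO than in WT in 24.2% of wider regions and in 22.1% of all constant regions.

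The rule has no minimum size, and members just inside it hardly differ from regions just outside. The 3 wider regions nearest the limit separated by 1 bp: near Egfl7 the lowest stimulated library measured 1014 bp and the highest control library 1013 bp, near Wasf2 787 and 786 bp, and in a region on chromosome 8 without a gene within 50 kb 1588 and 1587 bp. Just outside, with equal values, were regions at Serpinb1c (725 bp), Lhfpl2 (2148 bp) and a region on chromosome 13 without a gene within 50 kb (1252 bp). On the narrower side Chrna9, Mob2 and Atp1b3 separated by 1 bp, and Gng7, Fmnl1 and Dsp by 0. With a gap of at least 100 bp required, 346 wider and 130 narrower regions remained.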

How the data were processed

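The authors deposited 1 narrowPeak list per library; MACS2 2.1.1.20160309, deepTools 3.4.2, Bowtie2 2.3.4.1, SAMtools 1.15.1, cutadapt 4.1, FastQC 0.11.9 and build mm10 are named in the submitters' processing notes. Settings, duplicate handling and any cut-site shift are not given in the sources used here. Each library has its own peak calls. The deposited fold enrichment (a ratio), −log10 p, −log10 q and integer score belong to each peak in its own library; −log10 q ranked intervals within a list, and fold, −log10 p and score entered no comparison. Interval ends, as deposited by the authors, gave the widths, so width depends on the caller's threshold and on depth, which is unknown.

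Summits sharing an interval were taken as 1 interval. Chromosomes other than 1 to 19, X and Y were dropped. Members and gene lists were chosen with earlier results of these data known. A region's gene is the closest protein-coding gene within 50 kb (GRCm38.p6). The start-site table has no chromosome 18, so its 605 wider and 378 narrower members exclude it. The planned search for motifs in the changed stretches was not run; start-site windows of RefSeq were used instead. Named were the 12 wider and 12 narrower members with the largest gap, members nearest to listed genes, up to 10 members past the genotype test and 3 regions on each side of the limit; others are said to be chosen after values were seen.

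limma 3.58.1 (R 4.3.3) fitted 4 group means with a mean-width trend, threshold 0.05. On simulated data over 20551 regions the KO minus WT fit recovered 46% of log2 changes of 0.5 and 86% of changes of 1 among 200 changed regions, with 7 false calls. The simulated noise was independent between regions and held no library-wide shift in width. These numbers therefore do not cover errors from such a shift. Replicate numbers were not used to pair the libraries in the main fit. The exact permutation test rearranged genotypes within treatments (400 rearrangements, two-sided). Alternatives covered the number of intervals kept, a fixed −log10 q, merging, the width measure, scaling, region size, single genotypes and each library left out. Results for some genes are not reported here.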

Additional observations from a re-analysis of the deposited data

How the results depend on the processing

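The number of wider and narrower regions was 619 and 392. It was within 1.5 times of these with all deposited intervals (900 and 518), a 100 bp overlap for merging (619 and 392), outermost edges (650 and 412), the widest interval (573 and 366), regions under 3 kb (529 and 346) and regions of any width (667 and 406). It moved further with the strongest 50% of the kept intervals per library (188 and 143) and with a gap of at least 100 bp (346 and 130). The same held with a −log10 q of at least 10 for narrower regions (245, against 512 wider). With widths divided by the library median it moved further for wider regions (1044, against 506 narrower). In WT libraries alone it was 3518 and 1806, and in KO libraries alone 1278 and 4366. A separation of 3 from 3 libraries is easier to meet than one of 6 from 6, and leaving out a library also loosens the rule. These counts are therefore not like for like with the main ones. Leaving out 1 library gave 628 to 1082 wider regions, the highest without KO stimulated replicate 2, and 407 to 899 narrower regions, the highest without WT stimulated replicate 3. The wider share of members, 61.2% as reported, was 67.4% with scaled widths, 72.7% with the 100 bp gap, 22.6% in KO libraries alone and 41.1% without WT stimulated replicate 3. All 701 values of the 31 named regions under these alternatives kept their direction, and 47 moved by more than 1 SD. These regions were chosen for large gaps in the same widths. Their direction was therefore largely fixed in advance and is no test. Of the named regions, 24 of 30 matched remained members with all intervals and 8 of 12 with 50% of the kept intervals. At the fixed −log10 q 17 of 21 remained, and with the widest interval 22 of 31. Leaving out 1 library ended membership for Atp10a (without WT stimulated replicate 2, log2 1.73 to 0.17) and Maco1 (without KO control replicate 2, −1.26 to −0.11), where the merged region shortened to 1180 and 1165 bp. In all 12 of the 31 lost it under an alternative that matched them (Atp10a, Myb, Nfia, Tnip1, Arhgap45, Dlgap1, Ifngr1, Kcnc1, Maco1, Mtss1, Ptprc and Rnpepl1) and 19 did not.

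The genotype difference gave 22 regions wider and 598 narrower in KO. It gave 46 and 55 after centring, 4 and 159 with 50% of the kept intervals, and 44 and 1403 with library weights. Under the exact permutation test it gave 0 and 0 (4598 regions at an unadjusted p under 0.05). The smallest possible p of that test adjusted to 0.1045, so no region could pass it. Without 1 library the limma genotype difference ran from 6 to 32 and from 110 (without WT control replicate 3) to 2053 (without KO stimulated replicate 3). The interaction gave 0 regions, 14 with 50% of the kept intervals, 2 with weights and 0 to 73 without 1 library (73 without KO stimulated replicate 3). Of 129 values for the 8 named genotype members, 68 stayed on their side of the threshold, 61 lost it and 0 reversed; Atp8b4 kept it under 15 of 16 alternatives and Ywhaz under 7 of 16. The cause was not tested.

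Same-numbered libraries of different groups correlated at r = 0.001 to 0.104 in their deviations from group means, against −0.116 to 0.030 for other numbers. The same-numbered pairs were thus low but all above 0. Whether a number marks libraries handled together was not tested. With a replicate block the genotype difference gave 26 and 835 regions and the interaction 0.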
